A study of Homo sapiens with 12 samples.

Results

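The 6 genes described here encode subunits of chromatin complexes and cofactors of transcription: KAT5, ING3, ZZZ3, BPTF, NCOA5 and PPP1R10. They were taken by symbol from the tables of all 12 libraries, where each has a single entry, out of 6777 genes tested. They were selected on their RNA levels in these libraries, which were lower after AZD0095 than after DMSO, so their RNA values are given as a description without a test. The tested samples were MDA-MB-231 cells kept for 4 h with 10 nM AZD0095, an inhibitor of the lactate exporter MCT4, and the control samples were the same line kept with the solvent DMSO. RNA and ribosome-protected fragments, called footprints here, were each measured in 3 AZD0095 and 3 DMSO libraries. MDA-MB-231 is a human triple-negative breast cancer line, so all groups share 1 genetic background and stand for 1 line. Whether the replicates are separate cultures is not stated in the labels, so a p-value reflects library-to-library spread alone, and that spread may be technical.

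Histone acetyltransferases place acetyl groups on histone tails and loosen chromatin, and remodellers slide or evict nucleosomes with energy from ATP. Both work as large assemblies in which a catalytic subunit is guided by subunits that read histone marks. KAT5, also called TIP60, is the acetyltransferase of the TIP60/NuA4 complex, which acts in transcription and in the repair of DNA breaks. ING3 is a subunit of that complex with a PHD finger that binds methylated histone tails. ZZZ3 is a histone-reading subunit of the ATAC complex, built around a different acetyltransferase, KAT2A or KAT2B. BPTF is the largest subunit of the NURF remodeller and holds a PHD finger and a bromodomain. NCOA5 is a coregulator of nuclear receptors. PPP1R10, or PNUTS, carries protein phosphatase 1 to chromatin, where it acts on RNA polymerase II at the end of transcription.

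Values are in FPKM, fragment numbers divided by gene length and sequencing total, as the authors deposited them. The tables list only genes above 1 FPKM in every library (lowest value 1.002), and all 6 genes are among them. The mesenchymal markers VIM, CD44, AXL, MSN and LGALS1 of this line were listed and SPARC was not. Of the receptor and luminal genes, ESR1, PGR and CDH1 were not listed, ERBB2 and EPCAM were at 19.5 and 12.1 FPKM on average with AZD0095 and 16.8 and 10.1 with DMSO, and KRT8 and KRT18 were above 200 FPKM in both groups. Replicate RNA libraries correlated across genes at 0.989 to 0.997 and footprint libraries at 0.854 to 0.920. On the second principal component of RNA, AZD0095 replicate 1 stood apart at 12.2, with the other libraries between -7.90 and 3.18. In footprints DMSO replicate 2 was at 56.1 on the first component and DMSO replicate 1 at 52.8 on the second, with the other libraries between -18.9 and 2.95 and between -27.7 and 0.383. Footprint libraries held an implied 141122, 217366 and 501351 reads with AZD0095 and 123859, 107087 and 192324 with DMSO, recovered from whole-read steps in the values of 998 genes. No such steps were found in RNA, whose depth is unknown.

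The DNA before the start site is shown for the 4 genes with an entry in the RefSeq promoter table (GRCh38.p14, the assembly of hg38). ING3 and BPTF are named only. The 6 genes were chosen for lower RNA, and whether they share a control was not tested. Each run is the 250 bases before the start that the table gives, 5′ to 3′ on the gene's strand, with capitals on matches to 7 short motifs searched on both strands. The windows are chr11:65712002-65712251 on the plus strand for KAT5, and on the minus strand chr1:77683399-77683648 for the outer of 2 ZZZ3 starts, chr20:46089963-46090212 for NCOA5 and chr6:30617244-30617493 for PPP1R10. The KAT5 start in that table lies inside the span RefSeq gives for the gene, which begins at 65712018, so nearly all of the KAT5 window, with its ETS and cyclic AMP matches, is within the gene. The windows of ZZZ3, NCOA5 and PPP1R10 end where the gene spans begin.
KAT5: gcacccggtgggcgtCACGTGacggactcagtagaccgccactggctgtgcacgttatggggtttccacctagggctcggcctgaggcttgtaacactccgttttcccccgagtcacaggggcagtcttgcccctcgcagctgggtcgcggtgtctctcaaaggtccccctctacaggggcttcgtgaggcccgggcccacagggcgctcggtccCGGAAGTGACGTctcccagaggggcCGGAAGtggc
ZZZ3: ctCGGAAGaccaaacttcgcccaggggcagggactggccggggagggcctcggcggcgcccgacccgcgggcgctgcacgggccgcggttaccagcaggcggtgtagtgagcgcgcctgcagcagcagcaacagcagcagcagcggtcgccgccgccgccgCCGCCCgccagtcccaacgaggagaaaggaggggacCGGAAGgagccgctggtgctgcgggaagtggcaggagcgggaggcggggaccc
NCOA5: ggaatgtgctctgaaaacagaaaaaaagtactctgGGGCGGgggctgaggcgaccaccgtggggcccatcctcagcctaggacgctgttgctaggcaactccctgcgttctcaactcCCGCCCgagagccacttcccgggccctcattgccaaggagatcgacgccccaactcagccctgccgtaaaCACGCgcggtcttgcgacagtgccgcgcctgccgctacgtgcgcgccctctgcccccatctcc
PPP1R10: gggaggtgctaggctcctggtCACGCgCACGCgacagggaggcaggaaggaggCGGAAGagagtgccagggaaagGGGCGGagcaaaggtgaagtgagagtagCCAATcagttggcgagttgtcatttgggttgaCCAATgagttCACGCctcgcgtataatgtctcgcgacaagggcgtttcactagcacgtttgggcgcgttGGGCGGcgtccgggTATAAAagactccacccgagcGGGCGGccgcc

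The share of G and C in these windows was 66.4% in KAT5, 74.8% in ZZZ3, 64.4% in NCOA5 and 61.2% in PPP1R10, and 44.0% before the second ZZZ3 start, which is not shown, against a median of 58.0% over 35116 windows of the same length. No motif was found in all 4. CGGAAG, the core of ETS factor sites, was in KAT5 (2 matches), ZZZ3 (2) and PPP1R10 (1), and in 16.5% of all windows. The GC box GGGCGG was in ZZZ3 (1), NCOA5 (2) and PPP1R10 (3), and in 42.6% of all windows. The core GCGTG, bound by the aryl hydrocarbon receptor, was in NCOA5 (1) and PPP1R10 (3), and in 32.2% of all windows. KAT5 alone held the E-box CACGTG (6.34% of all windows) and, directly after an ETS core, the cyclic AMP response core TGACGT (7.1%). PPP1R10 alone held CCAAT (2 matches, in 32.0% of all windows) and TATAAA, which began 32 bases before the start (10.7%). None of the matches overlapped another, and the window of the second ZZZ3 start held only a TATAAA. A match describes these letters and does not show that a factor binds.

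The catalytic subunit KAT5 was the most abundant of the 6 RNAs and the least changed. It was at 27.3, 28.6 and 28.5 FPKM in the AZD0095 libraries and at 35.1, 36.0 and 38.7 FPKM in the DMSO libraries. The groups did not overlap, and the AZD0095 mean was 76.9% of the DMSO mean. The difference was -0.37 ± 0.06 (SE, n = 3 each) on the log2(FPKM + 1) scale. That scale is used for every fold change here and understates the change of low genes. Each SE here is from limma, which draws a gene's variance toward a trend over all genes. It is therefore not the spread of that gene's libraries alone. The KAT5 gene, ENSG00000172977, spans chromosome 11 from 65712018 to 65719604.

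ING3, its partner in the TIP60 complex, was lower by more. It was at 6.35, 4.38 and 5.09 FPKM with AZD0095 and at 10.7, 11.4 and 9.39 FPKM with DMSO. Every AZD0095 library lay below every DMSO library, with AZD0095 replicate 1 the nearest to them. The AZD0095 mean was 50.2% of the DMSO mean, a log2 difference of -0.88 ± 0.13 (SE). ING3, ENSG00000071243, lies on chromosome 7 from 120950777 to 120977216.

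ZZZ3 of the ATAC complex was at 17.3, 10.9 and 9.39 FPKM with AZD0095 and at 25.3, 22.1 and 19.8 FPKM with DMSO. AZD0095 replicate 1 again lay nearest to the DMSO libraries, only a little below the lowest of them. The mean with AZD0095 was 56.0% of that with DMSO, a log2 difference of -0.83 ± 0.19 (SE), with the widest error of the 6. The gene, ENSG00000036549, spans 120983 bases of chromosome 1, from 77562416 to 77683398.

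BPTF, the NURF subunit, was at 6.33, 4.01 and 4.54 FPKM with AZD0095 and at 8.93, 11.0 and 9.04 FPKM with DMSO. Here too the groups did not overlap and AZD0095 replicate 1 was the highest treated library. The AZD0095 mean was 51.3% of the DMSO mean (log2 difference -0.85 ± 0.15, SE). BPTF, ENSG00000171634, is the longest of the genes, with 158876 bases on chromosome 17 from 67825503 to 67984378.

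The cofactor NCOA5 had the largest difference of the 6. It was at 16.0, 15.5 and 16.8 FPKM with AZD0095 and at 32.3, 34.5 and 32.3 FPKM with DMSO. Replicates lay close together in both groups, and the AZD0095 mean was 48.7% of the DMSO mean (log2 difference -0.99 ± 0.07, SE). PPP1R10, the phosphatase targeting subunit, was at 12.3, 12.0 and 13.2 FPKM with AZD0095 and at 21.8, 22.7 and 23.1 FPKM with DMSO. Its AZD0095 mean was 55.4% of the DMSO mean (-0.80 ± 0.07, SE), again with a wide gap between tight groups. NCOA5, ENSG00000124160, lies on chromosome 20 from 46060991 to 46089962 and PPP1R10, ENSG00000204569, on chromosome 6 from 30600413 to 30617243.

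**Figure D1:**
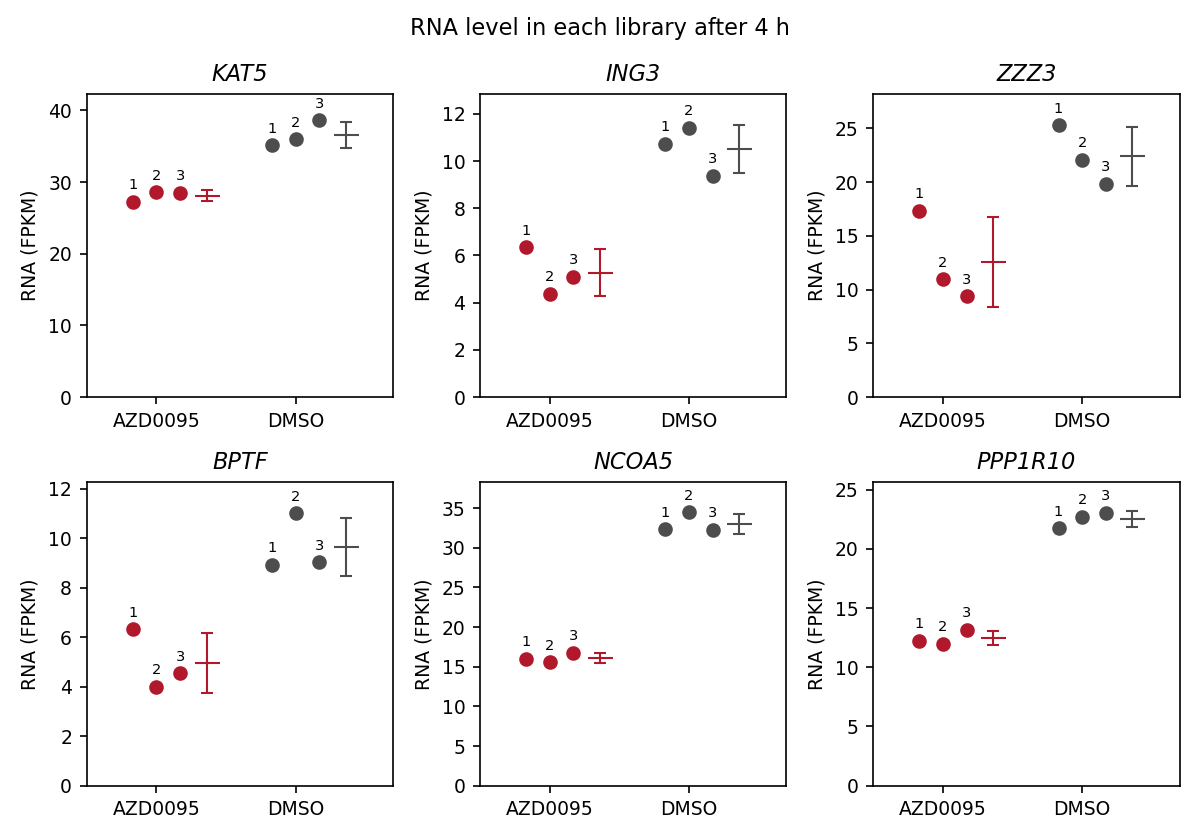
RNA level (FPKM, vertical axis from 0) of the 6 genes in each AZD0095 and DMSO library; numbers are replicates, and bars give the mean and SD of 3 libraries. AZD0095 replicate 1 is the highest treated library for ING3, ZZZ3 and BPTF, while treated libraries of KAT5, NCOA5 and PPP1R10 lie close together.

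In all 6 genes every AZD0095 library was below every DMSO library, in RNA values that were used to choose them; 11.5% of all genes tested had that order. By size of fall the genes ranked 5 (NCOA5), 9 (ING3), 10 (BPTF), 11 (ZZZ3), 12 (PPP1R10) and 212 (KAT5) of 6777. Since these are bulk measurements, fewer cells with a transcript and less of it per cell cannot be told apart. In DMSO cells the order of mean RNA level per length was KAT5 (36.6 FPKM), NCOA5 (33.0), PPP1R10 (22.5), ZZZ3 (22.4), ING3 (10.5) and BPTF (9.66). Libraries of PPP1R10 and ZZZ3 overlapped in that order, as did those of ING3 and BPTF. With AZD0095 the order was KAT5 (28.1 FPKM), NCOA5 (16.1), ZZZ3 (12.5), PPP1R10 (12.5), ING3 (5.27) and BPTF (4.96), and ZZZ3 then overlapped both of its neighbours. For comparison, the median gene was at 23.3 FPKM in DMSO cells.

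The 6 genes fell into 2 patterns by how much their treated libraries varied, a grouping made after the values were seen. For ING3, BPTF and ZZZ3 the coefficient of variation in AZD0095 libraries was 19.0%, 24.5% and 33.4%, against 9.83%, 12.1% and 12.3% in DMSO libraries. KAT5, NCOA5 and PPP1R10 varied by 2.68%, 3.79% and 5.03% with AZD0095 and by 5.05%, 3.85% and 2.99% with DMSO. In the first 3 genes AZD0095 replicate 1 was the highest treated library, as it was in 41.2% of the 204 genes called lower and in 47.2% of all genes. Without that library the log2 differences of ING3, BPTF and ZZZ3 were -1.004, -1.01 and -1.06, and those of KAT5, NCOA5 and PPP1R10 were -0.35, -0.99 and -0.79. Across the 6 RNA libraries the closest pairs were NCOA5 with PPP1R10 (Pearson r = 0.996) and ING3 with BPTF (0.986), and the most distant was ZZZ3 with KAT5 (0.721). These correlations describe 6 libraries that share the treatment difference.

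The next question was whether partners in the same complexes were lower too. Genes were tested with limma, two-sided, with Benjamini-Hochberg adjustment over all 6777 genes, and called at an adjusted p under 0.05; 8.04% of genes were called, 3.01% lower and 5.03% higher, and 24.2% had an unadjusted p under 0.05. Not every partner could be tested: over all complexes and families below, 135 of 177 genes outside the 6 were listed. For TIP60 this was 13 of 17, without EPC1, EPC2, MBTD1 and JAZF1. Of these 13 other TIP60 complex genes tested, 0 were called, and 1 had an unadjusted p under 0.05. Their median log2 difference was 0.05, beside 0.01 over all genes. The scaffold TRRAP was at 7.18, 9.79 and 8.42 FPKM with AZD0095 and 7.17, 9.13 and 9.96 FPKM with DMSO (-0.04), and the ATPase EP400 stood at 0.05. The largest positive difference was MORF4L2 (0.26, adjusted p = 0.063) and the largest negative one YEATS4 (-0.14, adjusted p = 0.49). The pair ING3 and KAT5 was picked for being low, so its place below these partners is not a result.

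In the ATAC complex 2 of 9 other genes fell and 0 rose. That is 22.2% called, beside 8.04% of all genes, 3.01% lower and 5.03% higher. Of the 9 differences 8 were negative, and their median was -0.15, beside 0.01 over all genes. With that median above 0, fewer of all genes had a negative difference than a positive one, though their number was not counted. SGF29, a reader of methylated histone tails, fell to 5.24, 6.03 and 5.47 FPKM with AZD0095, against 8.79, 7.26 and 7.72 FPKM with DMSO (-0.44 ± 0.10, SE, limma adjusted p = 0.030). The adaptor TADA2A fell to 11.8, 10.1 and 10.9 FPKM, against 15.2, 14.6 and 13.5 FPKM with DMSO (-0.37 ± 0.08, adjusted p = 0.034). The acetyltransferases KAT2A (-0.15, adjusted p = 0.23) and KAT14 (-0.31, 0.058) did not pass, and TADA3 was the highest at 0.10. In SAGA, the sister complex that shares SGF29, KAT2A and TADA3, 2 of 18 genes fell, SGF29 and TAF5L (-0.30, adjusted p = 0.047), and 0 rose. That is 11.1%, with SGF29 counted in both complexes. The SAGA median was -0.13, with 14 of 18 negative. SUPT20H was the highest SAGA gene at 0.24 (adjusted p = 0.19). SGF29, TADA2A and TAF5L kept their calls without AZD0095 replicate 1 and lost them when any other RNA library was left out.

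Among 12 other genes of NURF and related ISWI remodellers, 0 were called lower and 1 higher, and the median was -0.05. That is 8.33% called, beside 8.04% of all genes. The motor ATPases SMARCA1 (0.05) and SMARCA5 (-0.10) and the histone binders RBBP4 (-0.07) and RBBP7 (-0.03) did not pass. The gene that rose was BAZ2A, a subunit of the nucleolar remodelling complex, at 17.1, 27.4 and 21.7 FPKM with AZD0095 and 10.9, 13.5 and 14.2 FPKM with DMSO (0.72 ± 0.16, SE, limma adjusted p = 0.034). CHRAC1 was the lowest at -0.23 (adjusted p = 0.094).

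Of the 5 partners of PPP1R10, 0 passed in limma and 2 had an unadjusted p under 0.05, beside 24.2% of all genes: TOX4 stood at 0.21 (adjusted p = 0.094) and WDR82 at -0.19 (0.14). The phosphatase genes PPP1CA (-0.02), PPP1CB (0.03) and PPP1CC (-0.10) were not called. Of 9 other cofactors 0 passed and 2, or 22.2%, had an unadjusted p under 0.05, near the 24.2% of all genes, with a median of 0.08. CREBBP, an acetyltransferase, was at -0.23 (adjusted p = 0.24) and NCOA7 at 0.29 (0.19). NCOA1, NCOA3 and NCOA4 stood at 0.22, 0.09 and -0.17 beside -0.99 for NCOA5. Since NCOA5 was picked for being low, its place below these relatives is not a result.

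Among the relatives of ING3, ING5 fell to 3.30, 4.10 and 4.50 FPKM with AZD0095, against 6.60, 5.37 and 7.20 FPKM with DMSO (-0.57 ± 0.13, SE, limma adjusted p = 0.033). This was the largest fall among the listed genes outside the 6, and BCL7B of SWI/SNF, at -0.29 (adjusted p = 0.030), the smallest that was called. ING1 (-0.06) and ING2 (0.05) did not pass. Of 15 genes of other MYST acetyltransferase complexes, the family KAT5 belongs to, 2 fell and 1 rose, and the median was -0.14. The acetyltransferase KAT6B fell to 2.65, 2.86 and 2.55 FPKM, against 4.10, 4.72 and 3.66 FPKM with DMSO (-0.48, adjusted p = 0.027), and the scaffold BRPF3 fell to 22.4, 21.2 and 24.4 FPKM, against 30.1, 30.7 and 29.5 FPKM with DMSO (-0.40, adjusted p = 0.014). PHF20, a histone reader of the complex built on KAT8, rose by 0.49 (adjusted p = 0.0095).

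The other remodellers, and the enzymes that remove acetyl groups, were called in both directions. Of 18 SWI/SNF genes 1 fell (BCL7B) and 1 rose, the scaffold SMARCC2 (0.36, limma adjusted p = 0.026), with PBRM1 lowest at -0.33 (0.060). Of 18 INO80 and SRCAP genes 0 passed and 2, or 11.1%, had an unadjusted p under 0.05 (24.2% of all genes), from ACTR5 at -0.24 to INO80B at 0.36. Of 17 CHD and NuRD genes 2 rose, MTA1 (0.37, adjusted p = 0.027) and GATAD2B (0.37, 0.023), and 0 fell, with MBD3 lowest at -0.38 (0.056). Of 15 deacetylase genes HDAC9 fell (-0.43, adjusted p = 0.048) and the scaffold SIN3A rose (0.42, 0.012). The share called was 11.1% in SWI/SNF, 11.8% in CHD and NuRD and 13.3% in the deacetylases, beside 8.04% of all genes. Over all lists 14 of 135 genes outside the 6 were called, 8 lower and 6 higher. That is 10.4%, beside 8.04% of all genes. Over all genes the calls leaned the other way, with 3.01% lower and 5.03% higher. An unadjusted limma p under 0.05 was found for 41 of the 135, or 30.4%, beside 24.2% of all genes. Leaving out AZD0095 replicate 1, 2 or 3 gave 25, 0 or 3 calls among these 135, beside 1112, 116 or 214 of all 6777 genes. Leaving out DMSO replicate 1, 2 or 3 gave 6, 0 or 5, beside 280, 100 or 249 of 6777. Where limma called 0 of the 135, those with an unadjusted p under 0.05 numbered 31 without AZD0095 replicate 2, beside 1203 of all 6777 genes. Without DMSO replicate 2 they numbered 28 of 135, beside 1156 of 6777.

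**Figure D2:**
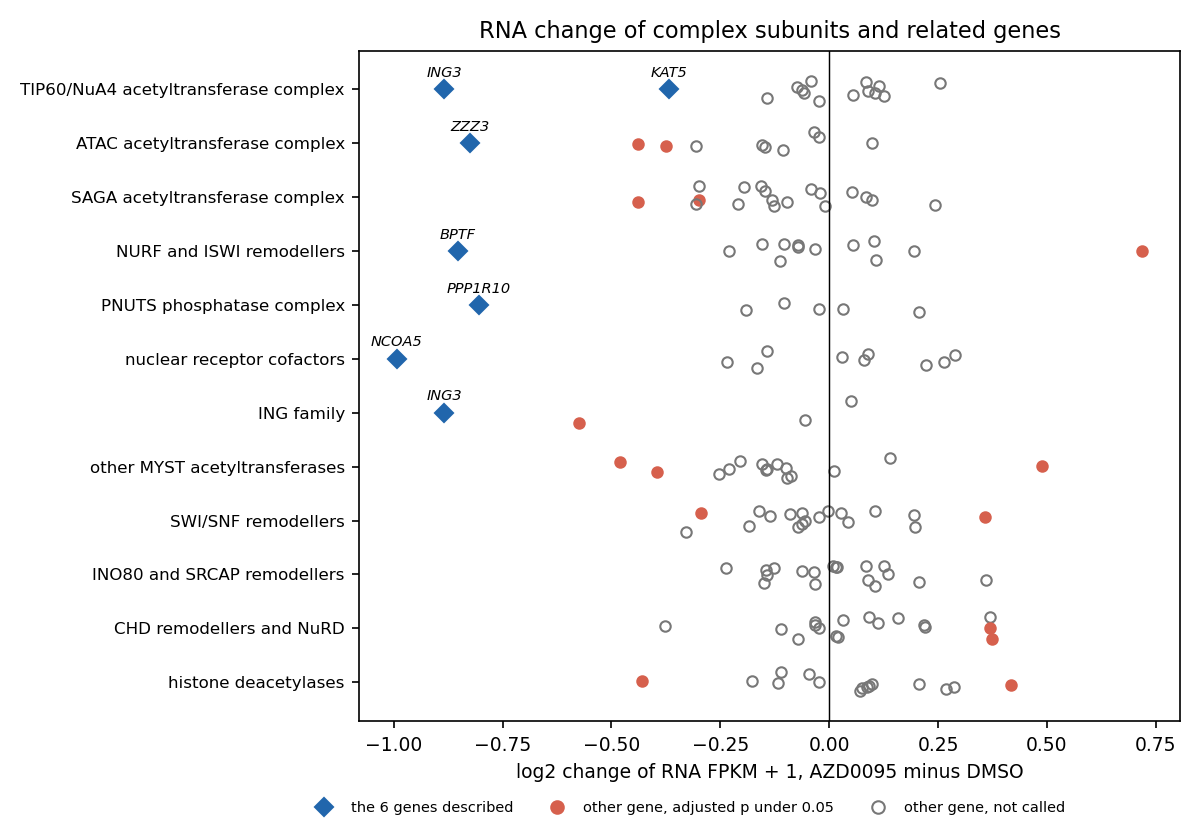
Log2 difference in RNA (AZD0095 minus DMSO, horizontal axis) of the genes tested in each list; diamonds are the 6 genes described, filled circles other genes with a limma adjusted p under 0.05, open circles genes not called. A gene in 2 lists is drawn in both. Of the circles, BAZ2A is the highest at 0.72 and ING5 the lowest at -0.57.

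The rule that chose the genes used their RNA difference and not their footprint difference, so footprints were tested. The genes did have to be above 1 FPKM in every footprint library, and earlier results of these data were known. In limma 0 of 6777 genes were called (0%), with 530 or 7.82% at an unadjusted p under 0.05, and the median within-group SD on the log2 scale was 0.55, against 0.10 for RNA. KAT5 footprints were at 76.1, 84.8 and 46.4 FPKM with AZD0095 and at 70.4, 35.7 and 90.7 FPKM with DMSO. The groups overlapped, here and in the other 5 genes; over all genes, every AZD0095 library lay below every DMSO library in 5.77% and above in 7.19%. The KAT5 log2 difference was 0.13 with a 95% interval from -0.90 to 1.16 (limma adjusted p = 0.97).

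ING3 footprints were at 70.7, 14.9 and 13.7 FPKM with AZD0095 and at 82.1, 7.53 and 21.5 FPKM with DMSO. Each group held 1 high library, replicate 1 in both, and the difference was 0.03 with an interval from -1.82 to 1.88 (limma adjusted p = 0.996). BPTF footprints were at 33.9, 14.5 and 12.8 FPKM with AZD0095 and at 16.4, 27.7 and 24.6 FPKM with DMSO. The groups overlapped, with a difference of -0.26 and an interval from -1.51 to 1.00 (adjusted p = 0.94). With single footprint libraries left out it ran from -0.67 to -0.0050.

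ZZZ3 was the member with the lowest footprint difference. Its footprints were at 16.9, 5.04 and 4.80 FPKM with AZD0095 and at 19.4, 14.9 and 36.7 FPKM with DMSO. AZD0095 replicate 1 lay above DMSO replicate 2, so the groups overlapped. The log2 difference was -1.43 with an interval from -2.81 to -0.05, and it did not pass after adjustment (unadjusted p = 0.044, limma adjusted p = 0.63). With single footprint libraries left out it ran from -1.96 to -1.08.

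NCOA5 footprints were at 20.03, 15.6 and 42.6 FPKM with AZD0095 and at 9.13, 28.7 and 63.0 FPKM with DMSO. The groups overlapped, with wide spread in both, and the difference was -0.11 with an interval from -1.65 to 1.42 (adjusted p = 0.98). PPP1R10 footprints were at 12.4, 8.07 and 9.79 FPKM with AZD0095 and at 11.3, 13.1 and 3.65 FPKM with DMSO (0.23, interval from -1.06 to 1.52, adjusted p = 0.95). PPP1R10 was the member whose values came to whole reads, with 5, 5 and 14 reads in the AZD0095 libraries and 4, 4 and 2 reads in the DMSO libraries. So 24 reads stood against 10, in libraries whose mean depth was 2.03 times as large with AZD0095. Reads of the other 5 genes were not recovered.

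A 2-fold difference in footprints, 1 on the log2 scale, lay inside the interval of 5 of the 6 genes in the downward direction, KAT5 being the exception. For each of the 6 genes, KAT5 included, a footprint difference as large as its own RNA difference lay inside the interval. These footprint values therefore do not exclude such a difference. Of the 135 other genes of the lists 0 were called in footprints, and 11 or 8.15% had an unadjusted limma p under 0.05, beside the 7.82% of all genes. The largest share was in SWI/SNF, with 5 of 18 genes or 27.8%. The other lists held 0 to 2 such genes each.

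**Figure D3:**
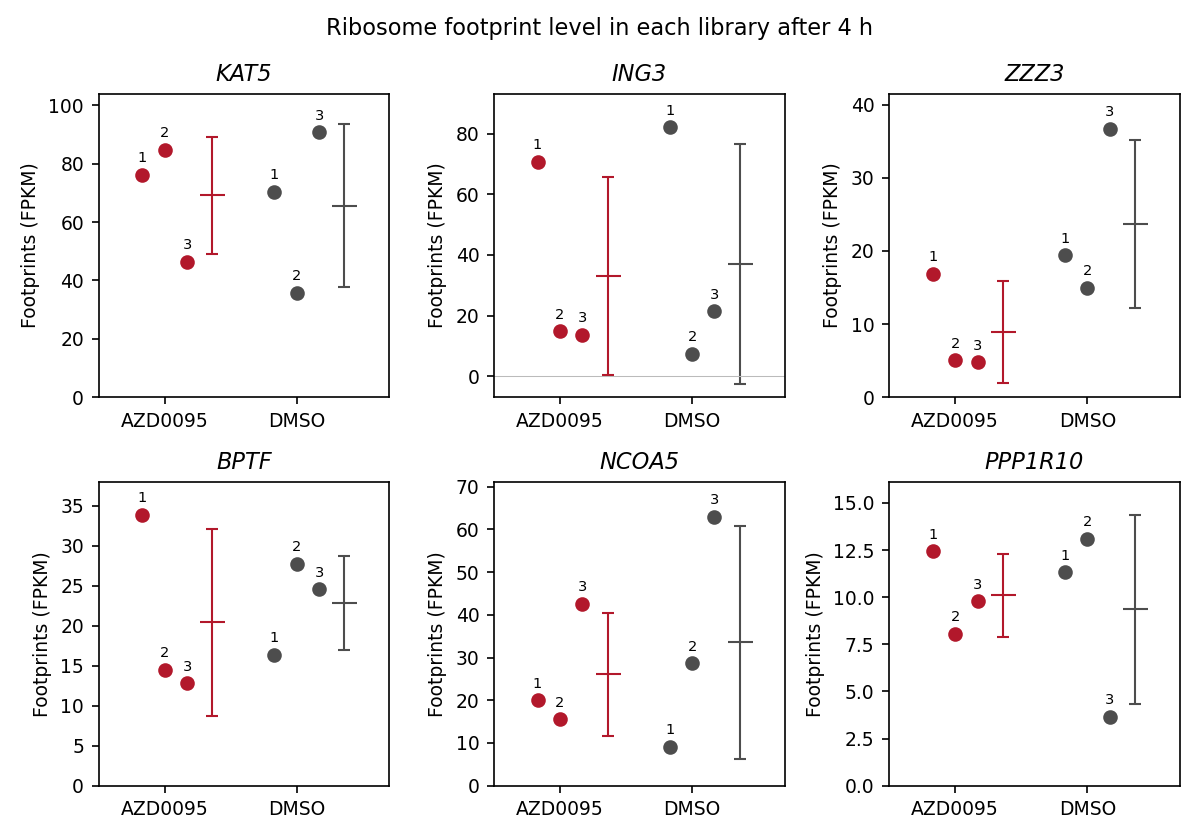
Footprint level (FPKM, vertical axis) of the 6 genes in each AZD0095 and DMSO library, numbered by replicate, with the mean and SD of 3 libraries. The groups overlap for all 6 genes.

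**Figure D4:**
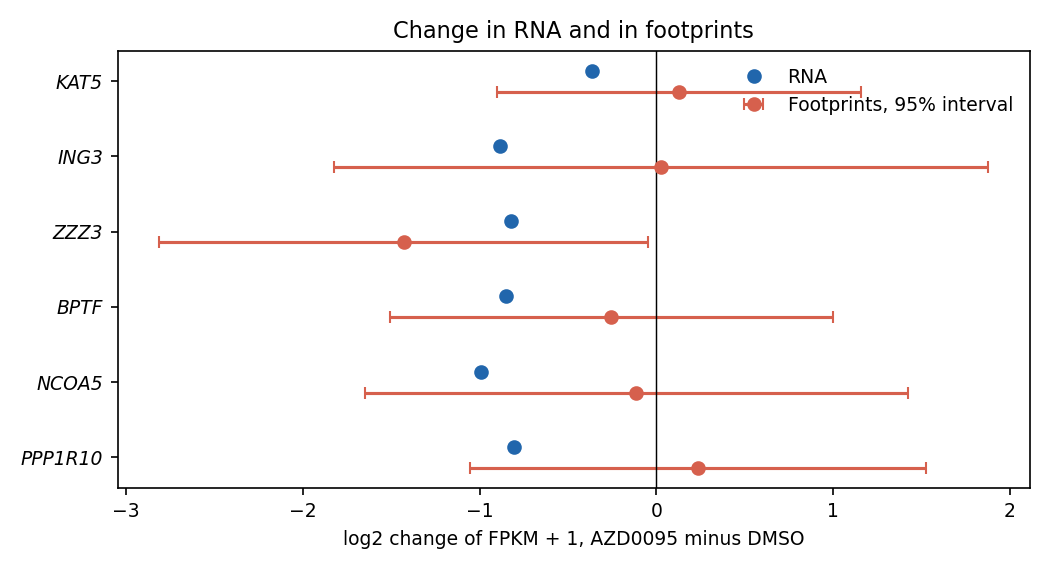
Log2 difference (AZD0095 minus DMSO, horizontal axis) in RNA, shown as points, and in footprints, shown with 95% intervals from limma. RNA points lie between -0.99 and -0.37, and the footprint interval of ZZZ3 is the one that ends below 0, at -0.05.

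The ratio of mean footprint to mean RNA FPKM, a measure of translational efficiency, was higher with AZD0095 for 5 of the 6 genes. It draws on the RNA libraries that chose them, so no test is given. Since RNA chosen for being lower raises this ratio, its direction is not a result. It was 6.28 with AZD0095 and 3.52 with DMSO for ING3, 4.12 and 2.37 for BPTF, and 2.46 and 1.79 for KAT5. For NCOA5 it was 1.62 with AZD0095 and 1.02 with DMSO, for PPP1R10 0.809 and 0.416, and for ZZZ3 0.710 and 1.06. The median gene had 2.45 with AZD0095 and 2.43 with DMSO, and in DMSO cells ING3 was the 1 gene of the 6 above the median. In the interaction of assay and treatment the difference ran from -0.61 ± 0.66 (SE) for ZZZ3 to 1.04 ± 0.55 for PPP1R10. Over all genes 0 passed in that limma fit (0%), with 578 or 8.53% at an unadjusted p under 0.05.

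Genes whose RNA followed the 6 most closely were found by Pearson's r over the 6 RNA libraries between each gene and the mean standardized profile of the 6. The 6 most alike outside the set were ARMC5 (r = 0.995, log2 difference -1.02), UBR3 (0.993, -0.57), CCL2 (0.993, -0.75), TRMU (0.992, -0.30), ZFP36L2 (0.990, -0.57) and NR2F2 (0.989, -0.49). ARMC5, which serves a ubiquitin ligase that acts on RNA polymerase II, was at 1.53, 1.12 and 1.39 FPKM with AZD0095 and 3.51, 3.91 and 3.82 FPKM with DMSO. CCL2 encodes a chemokine, ZFP36L2 a protein that destabilizes mRNAs and NR2F2 an orphan nuclear receptor. These values describe likeness in 6 libraries that share the treatment difference.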

How the data were processed

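RNA-seq and ribosome profiling of MDA-MB-231 cells gave 12 libraries, 3 per treatment and assay, grouped by the labels. The RNA libraries are titled as total RNA but labelled as polyadenylated RNA, and which applies is not settled, which bears on the RNA values and on their ratio to footprints. The authors deposited FPKM values per gene and library, per the file headers. Bowtie2, STAR, fastp and hg38 are named, per the submitters' processing notes; what each tool did, its version, the gene annotation and how FPKM was calculated are not stated there. Per the labels' protocols, footprints came from cycloheximide-treated lysates digested with RNase I, pelleted and freed of rRNA. Of 6785 genes listed, 8 repeated entries were removed. Values were analysed as log2(FPKM + 1), a pseudocount of 1; a filter at a mean of 1 FPKM removed 0 genes. The treatments were compared within each assay with limma 3.58.1 in R 4.3.3 (trended moderated variances, two-sided, Benjamini-Hochberg over 6777 genes), and translational efficiency as an interaction over all 12 libraries. Footprint depth was recovered where a gene's 6 values were whole multiples of 1 read within 0.03 of a read (14.7% of genes); at most 18 genes shared a ratio in RNA pairs, against 296 in footprint pairs. Reads of paralogs may be split in ways not stated. The steps were tested on simulated data.

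The 6 genes and all lists were chosen with earlier results of these data known. Named genes were the 6, list genes called in RNA, the extremes of each list and the 6 most alike. Alternatives covered the pseudocount, filters, centring, quantile normalization, trend, a replicate block, replicate 1 as a batch (RNA only) and leaving out each library. For translational efficiency only the pseudocount and the replicate block were varied.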

Additional observations from a re-analysis of the deposited data

How the results depend on the processing

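The RNA differences of the 6 genes had log2 values from -1.06 to -0.33 under the alternatives run. The genes were chosen for lower RNA and their groups did not overlap, so leaving out 1 library could not change the sign. With 3 libraries per group, it could not move a difference by a full replicate SD either. The replicate block, replicate 1 as a batch, the trend and the filters leave the difference unaltered. Under the pseudocount, centring and quantile normalization the values ran from -1.03 to -0.37. Of 6777 genes, 545 were called in RNA; the replicate block gave 1622 and replicate 1 as a batch 1660, and leaving out AZD0095 replicate 1, 2 or 3 gave 1112, 116 or 214 and DMSO replicate 1, 2 or 3 gave 280, 100 or 249. Same-numbered libraries did not all deviate together (r = 0.62, 0.09 and 0.49 in RNA, 0.01, -0.02 and 0.09 in footprints), so replicate numbers were not taken as a pairing; not every library correlated best with its own number. Of the 135 listed genes outside the 6, 14 were called, with 35 under the replicate block, 39 with replicate 1 as a batch, and 0 to 25 with 1 library left out. None of the 14 changed sign; HDAC9 was not called without the variance trend (limma adjusted p = 0.050). Each of the 14 lost its call without AZD0095 replicate 2 and without DMSO replicate 2. In footprints 0 genes were called under every alternative run, with 334 to 590 genes at an unadjusted limma p under 0.05. For translational efficiency the pseudocount and the replicate block were the only alternatives run. Again 0 genes were called, with 578 to 788 at an unadjusted limma p under 0.05. ING3 footprints changed sign with median centring (-0.020) and quantile normalization (-0.081). With single libraries left out ING3 footprints ran from -0.75 to 0.89, KAT5 from -0.25 to 0.41, NCOA5 from -0.82 to 0.51 and PPP1R10 from -0.27 to 0.53, with both signs in each of these 4; the cause was not tested. The footprint values rest on 107087 to 501351 implied reads per library, and whether this depth set their spread was not tested.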

Other observations

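Of the 14 list genes called in RNA, PHF20 and HDAC9 also had an unadjusted p under 0.05 in footprints (limma), as did 7.82% of all genes. Each was in the direction of its RNA. PHF20 stood at 1.53 in footprints (limma adjusted p = 0.63, unadjusted p = 0.032) beside 0.49 in RNA. HDAC9 was at -1.25 (limma adjusted p = 0.63, unadjusted p = 0.038) beside -0.43 in RNA. Neither passed after adjustment.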
